A study of Homo sapiens with 8 samples.

Results

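SMARCA4, SMARCA2, SMARCB1, SMARCC1, SMARCC2, SMARCD1, SMARCD2, SMARCD3, SMARCE1 and SS18 encode the ATPases and core subunits of the SWI/SNF chromatin remodelling complexes. These 10 genes were taken by name from the 19970 protein-coding gene records on chromosomes 1 to 22 and X, and each was read over its RefSeq record plus 5 kb on either side. Monomethylation of lysine 4 on histone H3 (H3K4me1) was profiled with ChIP-seq, sequencing of immunoprecipitated chromatin, in the established triple negative breast cancer line MDA-MB-231. Cells of genotype control were compared with cells of genotype ARID1A knockout, and the 8 samples were 2 H3K4me1 immunoprecipitates and 2 inputs of each genotype. How the knockout was made, whether it is 1 clone, and what the control cells carry were not given in the sources used here. Immunoprecipitates are labelled as made with an H3K4me1 antibody, while the protocol text calls that product an H3K4me3 antibody. The name H3K4me1 is kept below.

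SWI/SNF complexes use the energy of ATP to slide or evict nucleosomes. Each holds either SMARCA4 (BRG1) or SMARCA2 (BRM) as its ATPase, assembled on a core built around SMARCC1 and SMARCC2. ARID1A, named in the knockout genotype, is a DNA-binding subunit of the canonical BAF form of the complex. It is mutated in many cancers. H3K4me1 marks enhancers and the flanks of active starts, where the nucleosomes next to the start itself more often carry trimethylation. A peak of H3K4me1 in these genes therefore reports the chromatin of the genes that encode the remodeller, not the amount or the binding of the remodeller.

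Per genotype there was 1 deposited list of peaks, immunoprecipitate over input, with 82994 control and 73600 knockout peaks on the chromosomes used. No difference between the lists had a replicate check, no test was possible, and how many reads lie behind each peak is unknown. The lists differ in ways that reach every gene. Median pileup, a signal of stacked fragments given for each peak, had a control value of 13.6 and a knockout value of 16.4. The input background implied by pileup and fold had list medians of 3.70 and 4.61, a ratio of 1.246. At ARID1A itself 44673 control and 39191 knockout bases were covered. Peaks of a histone mark do not show whether the protein was lost.

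The promoters of 5 starts are shown first, because they show each arrangement of peaks described below. Each is the RefSeq promoter window, 250 bases before to 50 bases after a start, on the strand of the gene in GRCh38.p14, which shares its chromosome coordinates with hg38. Capitals mark TGANTCA (the AP-1 motif), CCAAT and GGGCGG (the GC box) on either strand, where these letters occur, so that CCAAT on the other strand reads ATTGG and GGGCGG reads CCGCCC. The SMARCA4 start (chr19:10960780-10961079, plus strand) lay in a gap between peaks in both lists. The SMARCA2 start (chr9:2015097-2015396, plus strand) also lay in a gap in both. That of SMARCB1 (chr22:23786716-23787015, plus strand) was inside a peak in both lists. That of SMARCD1 (chr12:50085092-50085391, plus strand) was in a gap in the control list and inside a peak in the knockout list. The internal start of SMARCD3 (chr7:151248645-151248944, minus strand) was inside a peak in the control list and in a gap in the knockout list.
SMARCA4: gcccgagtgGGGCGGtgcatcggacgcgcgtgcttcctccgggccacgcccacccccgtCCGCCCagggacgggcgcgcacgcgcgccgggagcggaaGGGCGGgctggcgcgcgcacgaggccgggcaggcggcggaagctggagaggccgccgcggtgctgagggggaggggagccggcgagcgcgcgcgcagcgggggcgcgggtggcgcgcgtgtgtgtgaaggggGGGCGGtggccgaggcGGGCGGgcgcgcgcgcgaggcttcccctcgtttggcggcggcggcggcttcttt
SMARCA2: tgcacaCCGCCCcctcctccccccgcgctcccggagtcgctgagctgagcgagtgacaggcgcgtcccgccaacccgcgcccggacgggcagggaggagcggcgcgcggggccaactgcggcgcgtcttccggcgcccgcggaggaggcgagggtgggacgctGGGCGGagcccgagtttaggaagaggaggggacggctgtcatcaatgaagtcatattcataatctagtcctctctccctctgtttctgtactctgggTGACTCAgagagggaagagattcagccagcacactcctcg
SMARCB1: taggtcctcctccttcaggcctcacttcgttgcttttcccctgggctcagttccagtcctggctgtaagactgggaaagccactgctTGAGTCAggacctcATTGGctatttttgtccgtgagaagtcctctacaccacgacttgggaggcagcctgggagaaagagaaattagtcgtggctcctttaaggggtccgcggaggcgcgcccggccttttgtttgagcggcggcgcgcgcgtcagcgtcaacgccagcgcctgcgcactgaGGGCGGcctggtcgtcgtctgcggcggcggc
SMARCD1: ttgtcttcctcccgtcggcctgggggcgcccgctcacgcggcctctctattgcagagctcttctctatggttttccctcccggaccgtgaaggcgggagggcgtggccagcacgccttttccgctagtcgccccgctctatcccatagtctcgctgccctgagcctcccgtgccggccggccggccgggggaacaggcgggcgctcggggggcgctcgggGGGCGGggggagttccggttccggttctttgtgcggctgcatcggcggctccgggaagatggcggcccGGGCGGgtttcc
SMARCD3: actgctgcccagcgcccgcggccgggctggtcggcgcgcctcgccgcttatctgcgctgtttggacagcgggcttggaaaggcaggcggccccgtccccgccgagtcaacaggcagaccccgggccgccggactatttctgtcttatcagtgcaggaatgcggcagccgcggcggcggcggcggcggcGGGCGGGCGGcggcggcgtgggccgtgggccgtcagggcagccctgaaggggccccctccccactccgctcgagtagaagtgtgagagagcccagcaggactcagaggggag

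The SMARCA4 promoter held 55 CpG dinucleotides in 300 bases, more than 99.5% of the first promoters of 15811 protein-coding genes, whose median was 22. SMARCA2 held 30, SMARCB1 25, SMARCD1 35 and the internal SMARCD3 promoter 36. TGANTCA occurred in the first promoters of SMARCA2, 10 bases after the start, and SMARCB1, 163 bases before it. These were 2 of the 8 members with a listed promoter, and 5.70% of all first promoters held the motif. GGGCGG occurred in 7 of the 8, with SS18 the exception, and in 58.3% of all. CCAAT occurred in SMARCB1, SMARCE1 and SS18 and in 36.4% of all. A match is a string of letters, not a measured binding site. These motif counts describe the promoters and were not related to the peaks.

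Over the 10 genes together, control peaks covered 100179 bases and knockout peaks 71389. A gene was called lower or higher when its covered bases differed by at least 1000. SMARCA4, SMARCA2, SMARCC1, SMARCD2, SMARCD3 and SMARCE1 were lower in the knockout list, 6 of 10, and SMARCB1 alone was higher, but when a −log10 q of 5 or more was required the counts turned to 3 lower and 6 higher. Of the 16810 genes with a covered base in either list, 35.7% were lower and 24.0% higher. Of the 7305 genes whose mean coverage lay within the members' range (4627 to 19982 bases), 42.5% were lower and 26.7% higher. With that cutoff, 28.2% of 12529 genes were lower and 42.5% higher, so the turn towards the knockout list was shared by genes at large. The members' median difference was -1405 bases against -337 for all covered genes, and at the stricter cutoff 2570.5 against 408. For the 7305 genes within the members' range the medians were -531 and, at the stricter cutoff, 182.

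**Figure D1:**
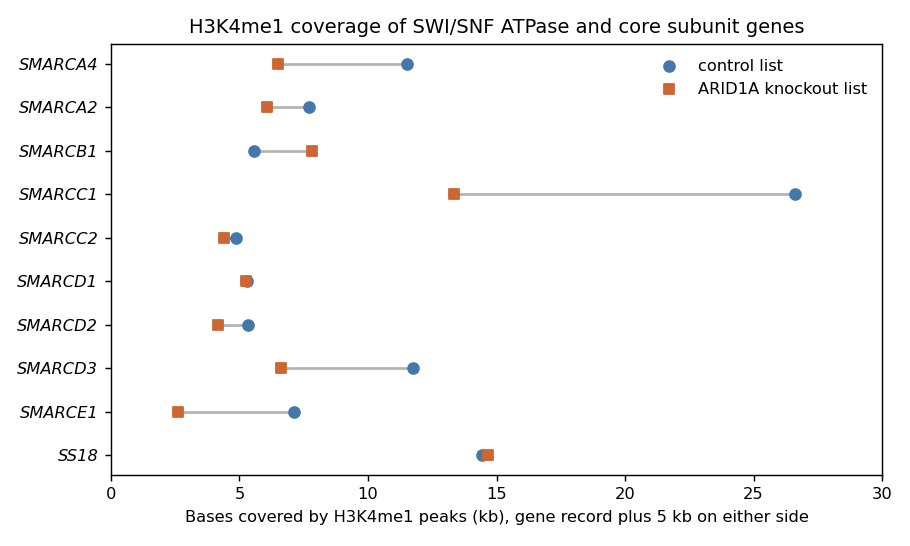
Bases covered by H3K4me1 peaks (kb) at each of the 10 genes, record plus 5 kb on either side, in the control list (circles) and the ARID1A knockout list (squares), 1 value per list with no error bar because each genotype has 1 list. SMARCC1 has the widest separation, 26621 against 13342 bases, and SMARCB1 is the gene whose knockout value is higher by over 1000 bases.

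SMARCA4 (BRG1; chromosome 19, 10961030 to 11062273), one of the alternative ATPases, had 11533 control bases under 5 peaks and 6499 knockout bases under 5 peaks. The strongest peak of both lists lay in the gene body about 74 kb from the start (73.96 kb in the control list), at 11034990 to 11036540 in the control list (−log10 q 6.88) and 11034780 to 11036509 for knockout (8.00). Its width hardly differed, 1551 and 1730 bases. The lower knockout coverage lay near the start. The peak that begins 1176 bases after the start was 3896 bases wide in the control list, and its knockout counterpart, beginning at 1100 bases, was 1592 bases wide. The next shared peak, near 14 kb from the start measured 3046 control and 789 knockout bases, and a control peak between them, at 10968348 to 10970519 (−log10 q 1.95), had no knockout overlap. In the other direction the knockout list held a peak at 11051696 to 11053555 (−log10 q 4.74), 15156 bases from the nearest control peak.

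The authors' pileup and fold describe each peak on the scale of its own list. They may be averages over the peak, which can depend on its width. At the first peak after the SMARCA4 start they were 15.5 and 3.41 for the control peak and 24.4 and 3.54 for the narrower knockout peak. With −log10 q at 5 or more, SMARCA4 had 1551 control and 3850 knockout bases, the reverse of the full lists. The implied input background over peaks within 2.5 Mb was 3.88 for control and 6.02 for knockout, a ratio of 1.55, the highest of the 10 genes. Its part in the narrower peaks was not tested.

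SMARCA2 (BRM; chromosome 9, 2015347 to 2193620), the alternative ATPase, is silenced without mutation in some tumours. It was the most sparsely covered member, with 7694 control bases (4.09% of its window) and 6068 knockout bases (3.22%). In both lists the strongest peak was the one about 3 kb after the first start, at 2018454 to 2020613 in the control list (−log10 q 7.28) and 2018351 to 2020146 in the knockout list (11.3). Other peaks began 141 and 145 kb into the gene, around the starts at 2157662 and 2158464 that RefSeq lists inside the gene. There the control peaks were 2156475 to 2157274 and 2160353 to 2161334, and the knockout peaks 2156503 to 2157155 and 2160241 to 2161597. The internal starts thus lay between the same pair of peaks in both lists, in gaps of 3078 and 3085 bases.

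Between these groups of peaks, 1 peak was shared, at 2120941 to 2122064 for control and 2121060 to 2121865 for knockout. The control list alone had weak peaks at 2058359 to 2059571 (−log10 q 1.34) and 2093706 to 2094261 (3.06), and the knockout list alone had one at 2125515 to 2126312 (1.34). The knockout peak upstream of the first start had a pileup of 19.4 but a fold of only 2.00, an implied background of 9.19, where the control peak had 16.0, 3.44 and 3.95. Over peaks within 2.5 Mb of SMARCA2 the ratio of implied backgrounds was 0.855, from 109 control and 75 knockout peaks, and within 1 Mb it was 1.255, from 41 and 23. SMARCA2 missed the threshold of 1000 bases in 3 alternatives and was higher in the knockout list, by 1796 bases, among peaks with a fold of at least 4.

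SMARCB1 (BAF47 or INI1; chromosome 22, 23786966 to 23838009), the core subunit lost in malignant rhabdoid tumours, had 5554 control and 7840 knockout bases. In the control list a peak at 23780995 to 23782760 (−log10 q 10.7, the strongest of the gene) was separate from a peak over the start at 23786213 to 23789926 (5.44). In the knockout list 1 peak of 8345 bases, 23780999 to 23789343 (6.63), spanned both and the bases between them. The excess lay outside the gene, in the upstream 5 kb, where the window shares 2351 bases with the metalloproteinase gene MMP11. Those 2351 bases held 795 covered control bases and were covered in full in the knockout list. Over the SMARCB1 record alone the order turned, with 2961 control and 2378 knockout bases. At the opposite end, the peak at 23838040 to 23839084 of the control list, which extends over the neighbouring gene DERL3, was 1045 bases wide against 462 in the knockout list.

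SMARCC1 (BAF155; chromosome 3, 47585269 to 47781893) and SMARCC2 (BAF170; chromosome 12, 56162359 to 56189483) encode the paired scaffold subunits on which the complex is built. SMARCC1 had the largest difference in bases of the 10 genes, with 12 control peaks covering 26621 bases and 7 knockout peaks covering 13342. Of the 12 control peaks, 6 with 7988 bases in all had no knockout overlap. The strongest of them, at 47703326 to 47705857, had a −log10 q of 7.73 and a fold of 4.04, above 86.9% of the control list, and the nearest knockout peak was 9711 bases away. The knockout list in turn held 1 peak without control overlap, at 47669339 to 47671127 (−log10 q 6.82), 13891 bases from the nearest control peak. Of the 6 peaks found in both lists, 5 were narrower in the knockout list.

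The strongest control peak of SMARCC1, 47773692 to 47779992 near the higher-coordinate end of the record, measured 6301 bases (−log10 q 10.7), and its knockout counterpart measured 4564 (6.77). The strongest knockout peak was another, 47725105 to 47727272 (−log10 q 11.5), against 47724660 to 47727148 in the control list (7.96). SMARCC1 stayed lower in the knockout list in the 6 alternatives run for it, with differences from -13316 to -8657 bases. RefSeq places the short record HIGD2AP2 inside the gene, with no covered base in either list. The ratio of implied backgrounds within 2.5 Mb was 1.29, near that of the whole lists.

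SMARCC2 had the same 3 peaks in both lists, 4862 control and 4391 knockout bases, a difference under the threshold. The strongest knockout peak, 56159515 to 56161367 (−log10 q 8.10), lay over MYL6, a myosin light chain gene, whose overlap with the window held 1861 control and 1853 knockout bases. Its control counterpart had a −log10 q of 3.496, and the strongest control peak was 56190650 to 56191781 (4.197), next to the higher-coordinate end of the record. MYL6B also reaches into the window and had no covered base there. With −log10 q at 5 or more no control base and 3667 knockout bases remained at SMARCC2. With 10 kb on either side the gene was lower in the knockout list, at 8033 and 5852 bases. The SMARCC paralogs thus differed from each other in the full lists, SMARCC1 with 0.501 times and SMARCC2 with 0.903 times the control bases in the knockout list, with no replicate spread against which to judge it.

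**Figure D2:**
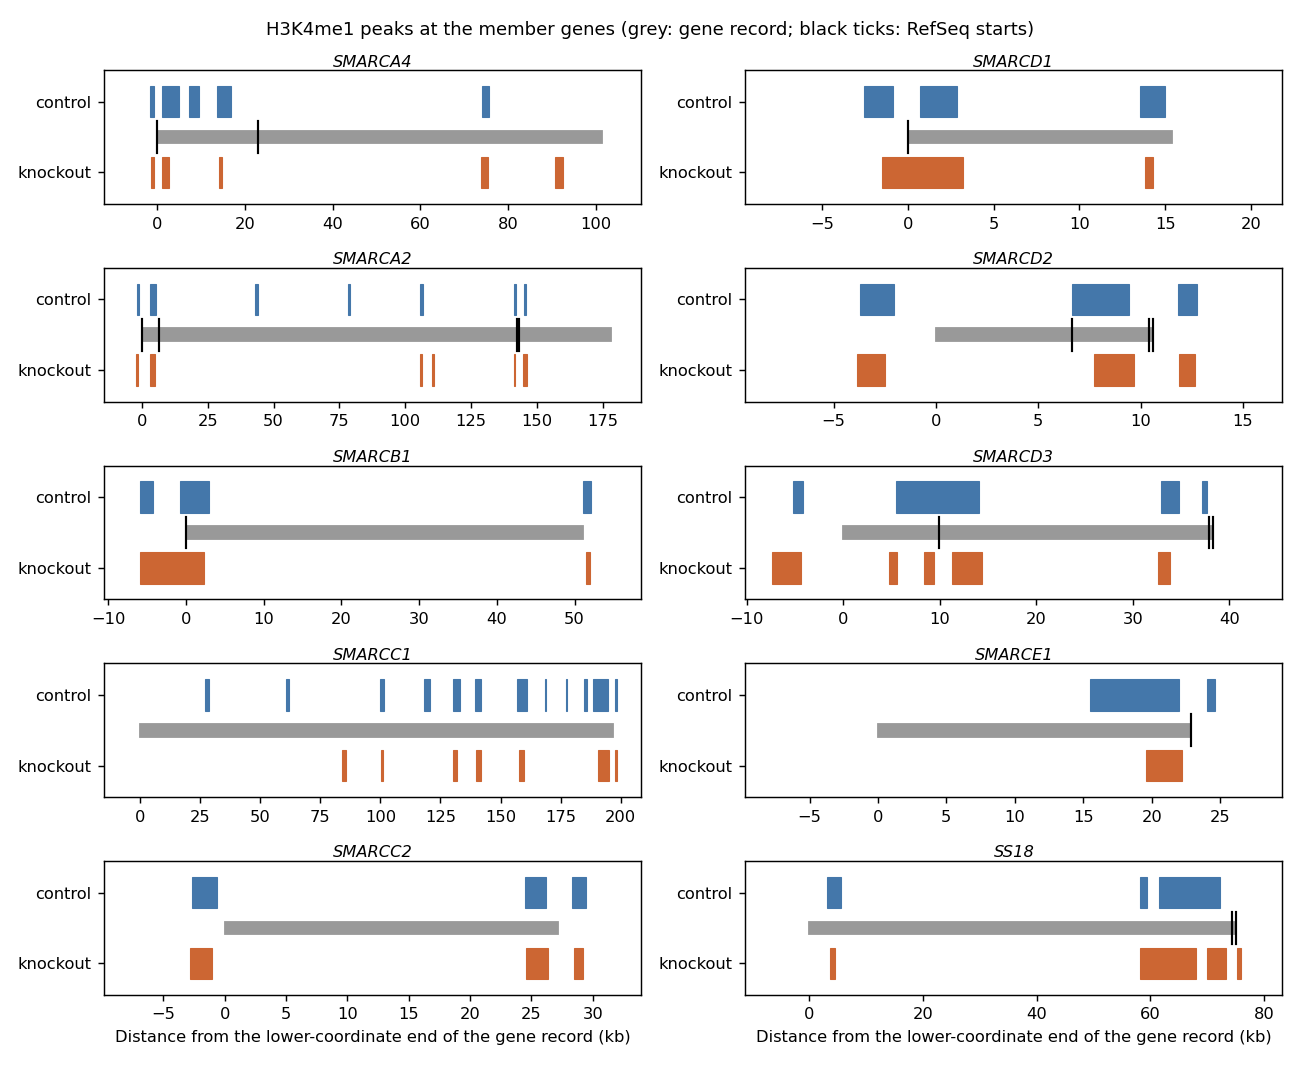
Positions of H3K4me1 peaks at the 10 genes, drawn from the lower-coordinate end of each gene record (x axis, kb), with control peaks above and knockout peaks below the grey bar of the record and black ticks at the starts RefSeq lists for 8 of them. SMARCC1 shows 12 control and 7 knockout peaks, and the 8345-base knockout peak of SMARCB1 joins what are 2 peaks in the control list.

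SMARCD1, SMARCD2 and SMARCD3 (BAF60A, BAF60B and BAF60C) are alternative subunits that link the complex to transcription factors, SMARCD3 being the form best known from heart and muscle. SMARCD1 (chromosome 12, 50085342 to 50100707) had nearly equal coverage, 5294 control and 5242 knockout bases, in a different arrangement. The control list had a peak on each side of the start, 50082798 to 50084487 (−log10 q 9.31) and 50086040 to 50088183 (2.77), with 1552 uncovered bases between. The knockout list had 1 peak of 4737 bases across it, 50083841 to 50088577 (6.07). The farthest 825 bases of upstream coverage in the control list lay over ASIC1, an ion channel gene, with 0 knockout bases there, and GPD1 at the other end held none in either list. Near the end of the gene the same peak was 1460 bases wide for control and 505 for knockout.

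SMARCD2 (chromosome 17, 63832081 to 63842685) had 3 peaks at matching places, 5342 control and 4158 knockout bases. The strongest, at 63838699 to 63841512 in the control list (−log10 q 8.59) and 63839798 to 63841752 in the knockout list (9.48), began 1173 and 933 bases after the first start. The upstream peaks, 900 and 820 bases wide, nearly coincided. The remaining pair of peaks lay over PSMC5, a proteasome subunit gene, with 1628 and 1383 bases, and FTSJ3 had none in the shared part of the window. The difference of -1184 bases is close to the threshold and was smaller in size than 1000 bases in 3 alternatives.

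SMARCD3 (chromosome 7, 151238780 to 151277149) had 11739 control and 6608 knockout bases. Most of the difference lay at its internal start, at position 151248694. A single control peak of 8612 bases, 151244248 to 151252859 (−log10 q 4.17), covered that start. The knockout list had 3 shorter peaks there, 151243495 to 151244296 (1.39), 151247178 to 151248161 (4.13) and 151250100 to 151253123 (5.86), and the start fell in a gap of 1938 bases between the latter pair. At the first start, a weak control peak at 151275979 to 151276497 (−log10 q 1.70) had no knockout overlap. The strongest peak of the window in both lists lay beyond the end of the record, at least partly over CHPF2, and was cut by the window edge (control 5.26, knockout 10.4). With −log10 q at 5 or more the order turned, with 799 control and 3641 knockout bases.

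SMARCE1 (BAF57; chromosome 17, 40624962 to 40647818), a DNA-binding subunit with an HMG domain, had the lowest ratio of the 10 genes. Its 7121 control bases lay in a peak of 6485 bases inside the gene, 40640430 to 40646914 (−log10 q 5.36), and a peak of 636 bases upstream of the start, 40648969 to 40649604 (2.72). The knockout list had 1 peak, 40644568 to 40647158 (8.13), of 2591 bases, 0.364 times the control coverage. The upstream peak had no knockout overlap and the nearest knockout peak upstream of the start was 59401 bases away. The narrower knockout peak had a pileup of 28.0 and a fold of 3.65 on its own list's scale, and the control peak 20.5 and 3.33. At a fold of at least 4 no peak of SMARCE1 remained in either list.

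SS18 (chromosome 18, 26016253 to 26091219), a subunit known for its fusion to SSX genes in synovial sarcoma, had 14419 control and 14650 knockout bases, the only member besides SMARCB1 with more in the knockout list. Its main domain began 2804 bases after the first start in the control list, as a peak of 10703 bases at 26077713 to 26088415 (−log10 q 2.97, the strongest of the gene there). A separate control peak of 1238 bases lay farther into the gene, at 26074467 to 26075704 (2.00). The knockout list had a peak of 9843 bases, 26074422 to 26084264 (3.64), that took in this peak and part of the main domain, and one of 3339 bases, 26086173 to 26089511 (5.71), the strongest. A knockout peak at 26091509 to 26092108 (3.61), 290 bases upstream of the start, had no control overlap, and the nearest control peak upstream was 133969 bases away. The median implied background within 2.5 Mb was 2.98 for control peaks, the lowest of the 10 genes, and 3.88 for knockout peaks. With −log10 q at 5 or more SS18 had no control base and 3339 knockout bases.

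Relative to window size, the order in the control list ran from SMARCD2 (25.9%), SMARCD3 (24.3%), SMARCE1 (21.7%) and SMARCD1 (20.9%) through SS18 (17.0%), SMARCC2 (13.1%), SMARCC1 (12.9%), SMARCA4 (10.4%) and SMARCB1 (9.10%) to SMARCA2 (4.09%). In the knockout list SMARCD1 (20.7%), SMARCD2 (20.2%) and SS18 (17.2%) came first and SMARCE1 (7.89%), SMARCC1 (6.46%), SMARCA4 (5.84%) and SMARCA2 (3.22%) last. SMARCD3 (13.7%), SMARCB1 (12.8%) and SMARCC2 (11.8%) stood between. The 3 longest records, SMARCC1, SMARCA2 and SMARCA4, had the 3 lowest shares in the knockout list. With 1 list per genotype, no neighbours in either order can be said to differ beyond error.

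The 8 members with listed starts mostly showed a gap over the start with a peak on one or both sides. In the control list 5 had peaks within 5 kb on both sides of an uncovered first start (SMARCA4, SMARCA2, SMARCD1, SMARCD2 and SMARCE1), beside 40.8% of 15811 protein-coding genes. Only SMARCB1 had its start inside a control peak, beside 14.1% of genes. In the knockout list 4 were flanked on both sides (SMARCA4, SMARCA2, SMARCD2 and SS18), beside 30.2%, and the starts of SMARCB1 and SMARCD1 were inside a peak, beside 24.1%. The state differed between lists at 3 genes. SMARCD1 was bridged in the knockout list, SMARCE1 had no knockout peak upstream, and SS18 had no control peak upstream. When the same merging distance was applied to both lists, the counts of members' starts inside a peak were still 1 and 2, while the share of all starts inside a control peak was 18.7%.

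Gap lengths were alike in both lists where a start was flanked in both. They measured 1943 control and 1835 knockout bases at SMARCA4, 2392 and 2176 at SMARCD2, and 4155 and 4539 at SMARCA2. At SMARCD3 the first start had a peak within 5 kb only on its downstream side, at 652 bases for control and 4519 for knockout. Within 5 kb of the first start, these 8 members had 28338 control and 26430 knockout bases in sum. There SMARCB1 (4509 and 7378) and SS18 (2197 and 3893) were higher in the knockout list, and SMARCA4 (4693 and 2120), SMARCE1 (4733 and 2591) and SMARCD3 (1905 and 482) lower.

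**Figure D3:**
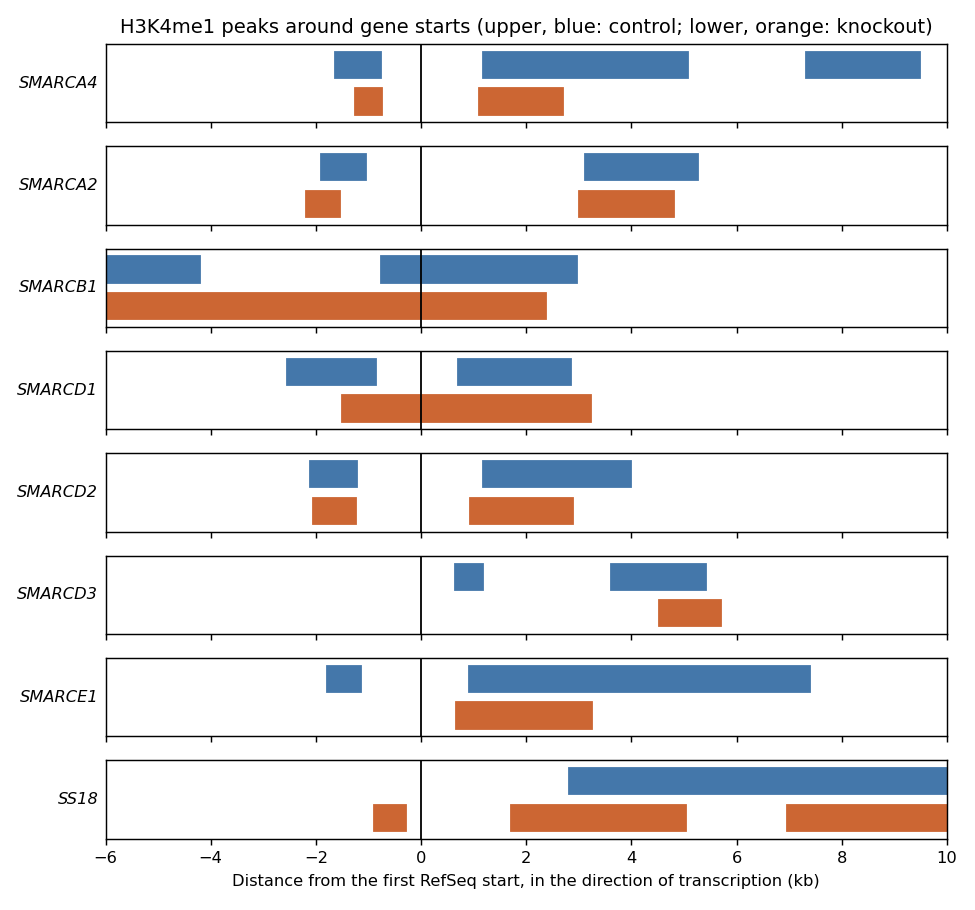
Peaks from 6 kb before to 10 kb after the first RefSeq start of 8 members, in the direction of transcription (x axis, kb), with control peaks in the upper and knockout peaks in the lower row of each panel and the start as a black line. The start is uncovered in both lists at SMARCA4, SMARCA2, SMARCD2, SMARCD3, SMARCE1 and SS18, inside a peak in both at SMARCB1, and inside a knockout peak only at SMARCD1.

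The peaks of these genes that had a single counterpart in the opposite list were mostly narrower in the knockout list. There were 26 such pairs in the 10 windows, and the knockout peak was narrower in 22 and wider in 4. Among all 50395 such pairs of the lists 51.4% were narrower. Peaks that joined or split between the lists have no single counterpart and are left out, so the widths themselves helped to decide which pairs counted. Left out are the knockout peaks of 8345 bases at SMARCB1, 4737 at SMARCD1 and 9843 at SS18, each of which took in 2 control peaks, and the 8612-base control peak at SMARCD3. The SMARCD3 peaks at least partly over CHPF2, 992 control and 2975 knockout bases wide, are also left out. So is the 3339-base knockout peak at SS18. SMARCB1, SMARCD1 and SS18 each enter through 1 pair far from the start. The median ratio of knockout to control width was 0.706 at the members, with a range of 0.259 to 1.38, and 0.989 over all pairs. The narrowest relative to control were the SMARCA4 peak near 14 kb from the start (0.259), the SMARCD1 peak near the end of the gene (0.346), the SS18 peak near the end of the gene (0.3503) and the SMARCE1 peak (0.3995). The 4 wider ones were the SMARCA4 peak about 74 kb into the gene (1.12), the SMARCA2 peak downstream of its internal starts (1.38), and 1 each at SMARCC1 (1.05) and SMARCC2 (1.06).

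The narrower widths were not as frequent around these genes as in them. Of 1296 pairs within 2.5 Mb of a member but outside its window, 58.3% were narrower in the knockout list, with a median ratio of 0.941. By member, the share ran from 48.8% of 43 pairs around SMARCA2 to 66.7% of 84 around SMARCB1. It was 49.0% of 153 around SMARCA4 and 61.3% of 204 around SMARCE1. In the windows of 18 other SWI/SNF subunit genes 48 of 82 pairs were narrower (58.5%), and in those of 20 other remodelling ATPase genes 42 of 65 (64.6%). The members' pairs come from 10 loci and share 2 lists, so they are not independent, and no test of the difference was made. With peaks of −log10 q 5 or more alone, 9 of 12 member pairs were narrower, beside 51.0% of all 16175 such pairs.

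**Figure D4:**
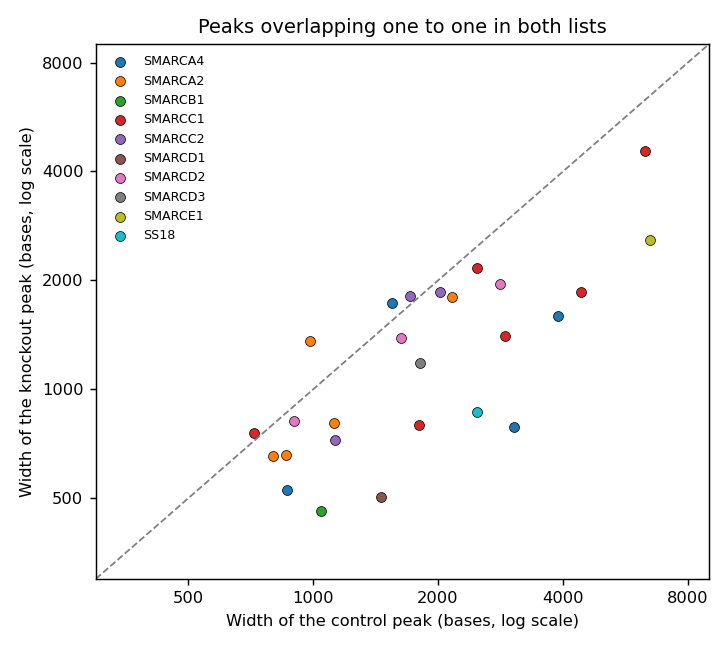
Width of the knockout peak against the width of the control peak (bases, both axes on a log scale) for the 26 pairs of peaks that overlap one to one in the windows of the 10 genes, coloured by gene. The dashed line marks equal width, and 22 of the 26 points lie below it.

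Of the 45 control peaks in the 10 windows, 11 overlapped no knockout peak (24.4%, 95% exact interval 12.9 to 39.5), beside 28.2% of the whole control list. Of the 38 knockout peaks, 4 overlapped no control peak (10.5%, 2.94 to 24.8), beside 21.3% of the knockout list. These intervals cover counting error only and treat peaks as independent, although the peaks come from 10 loci, so they may be too narrow. With −log10 q at 5 or more in both lists the order turned, with 12.5% of 16 control peaks and 35.0% of 20 knockout peaks without overlap. No share over all peaks is given at this cutoff, so the turn cannot be called particular to the members. The 11 control peaks lay at SMARCC1 (6), SMARCA2 (2), SMARCA4, SMARCD3 and SMARCE1, and the 4 knockout peaks at SMARCA4, SMARCA2, SMARCC1 and SS18. SMARCB1, SMARCC2, SMARCD1 and SMARCD2 had none. By bases, 53930 were covered in both lists, which was 53.8% of the members' control coverage and 75.5% of their knockout coverage, beside 69.5% and 72.2% over the whole lists. Single-list control peaks held 13084 bases, and the other control bases missing from the knockout list lay in peaks that overlapped a knockout peak, at their edges or in gaps between knockout peaks.

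Related genes were read the same way. Of 18 other SWI/SNF subunit genes, 11 were lower and 1 higher in the knockout list, with a median difference of -1764 bases, and with −log10 q at 5 or more the counts were 4 lower and 7 higher. At ARID1B, which encodes the alternative to ARID1A in BAF, control peaks covered 77712 bases and knockout peaks 59170, and the PBAF subunit gene PBRM1 16752 and 10130, while ARID2, another PBAF subunit gene, was the one higher, at 6929 and 11545. Of 20 other chromatin remodelling ATPase genes, 13 were lower and 3 higher, and at the stricter cutoff 3 lower and 12 higher. CHD7 had 29318 and 13854 bases and CHD2 35819 and 25485, whereas CHD9 had 28484 and 34121 and ERCC6 1420 and 3707. At the stricter cutoff ARID1B (23300 control and 32684 knockout bases) and CHD7 (1133 and 4217) turned, and ERCC6 had no covered base in either list. PBRM1, ARID2, CHD2 and CHD9 kept their direction there. Beside these counts for related genes, the 10 members had 6 lower and 1 higher, and 3 lower and 6 higher at the stricter cutoff. In all 3 lists, lower genes outnumbered higher ones as deposited and higher genes outnumbered lower ones at that cutoff. Genes at large had the same order, with 35.7% lower and 24.0% higher as deposited and 28.2% and 42.5% at that cutoff. That order is therefore not particular to these lists.

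The ratio of implied input backgrounds within 2.5 Mb lay between 1.11 at SMARCB1 and 1.30 at SS18 for 8 of the 10 genes, around the 1.246 of the list medians. The exceptions were SMARCA4 (1.55) and SMARCA2 (0.855, or 1.255 within 1 Mb). Among the genes with more knockout bases, SMARCB1 had the lowest ratio of the 8 and SS18 the highest. The part of the input in any of these differences was not tested.

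**Figure D5:**
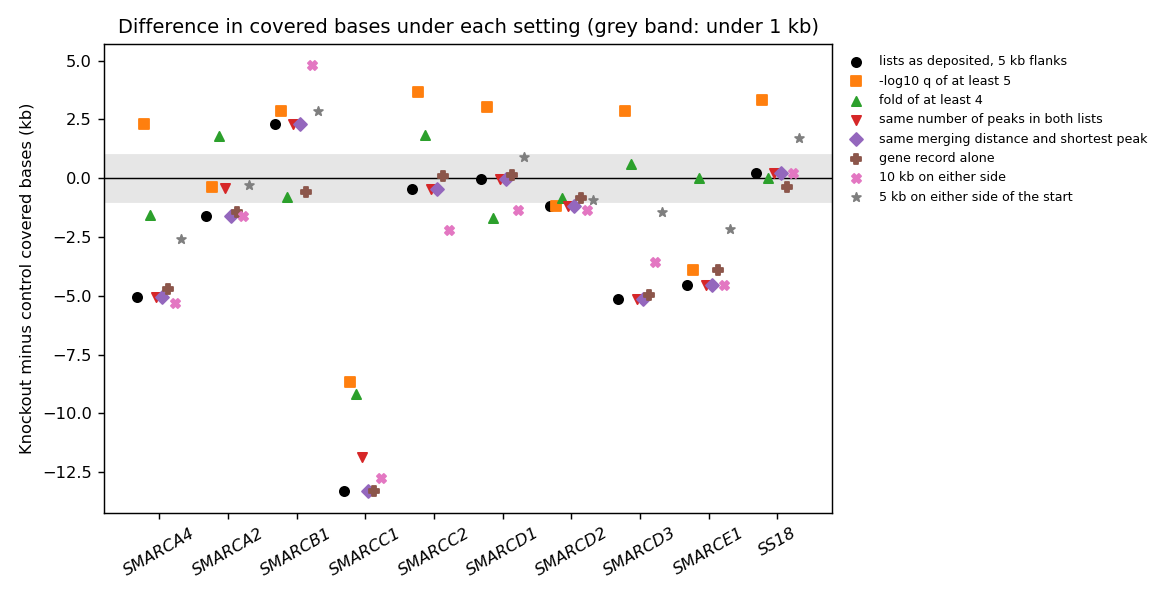
Knockout minus control covered bases (kb) at each member gene for the lists as deposited (black circles) and under 7 alternatives, with a grey band for differences under 1 kb; the setting based on starts has no value for SMARCC1 and SMARCC2. SMARCC1 lies below the band in every setting run for it, SMARCE1 lies below it or at 0, and SMARCA4, SMARCA2, SMARCB1, SMARCC2, SMARCD1, SMARCD3 and SS18 change sign in at least 1.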

How the data were processed

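The submitters' processing notes name Bowtie2 2.3.5.1, MACS2 2.2.6 and hg38, and for settings, duplicates and the handling of the 2 replicates nothing is given in the sources used here. Each genotype has 1 peak list deposited by the authors. Per the file headers it holds positions, pileup (a signal of stacked fragments), fold enrichment (a ratio to input) and −log10 q value. The lists as read hold no summit position, so pileup, fold and −log10 q may be averages over a whole peak. Such averages can depend on peak width, and so can rankings and cutoffs that use them. Fold and −log10 q are the authors' own, describe peaks within a list, and cannot be compared strictly between lists. The lowest −log10 q was 1.01 in each. The smallest gap between neighbouring peaks was 1249 bases in the control and 1445 in the knockout list, and the shortest peak 312 and 361.

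Covered bases were counted in Python 3.11.15 with pandas 2.3.3, over RefSeq GRCh38.p14 records plus 5000 bases on either side, after the counting had been tested on simulated data. A peak was shared when at least 1 base overlapped. Implied input background was (pileup + 1) / fold − 1, assuming the pseudocount of 1 of MACS2. The first start was the most upstream of those listed. Members, lists and thresholds were chosen with earlier results of these data known. All members were named, with ARID1A, up to 2 genes in each direction of each other list, genes overlapping a window, and in each window the strongest, start-nearest and strongest single-list peaks. Other peaks named were chosen after their values were seen. Peaks on other sequences (6 control, 3 knockout) were left out.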

Additional observations from a re-analysis of the deposited data

How the results depend on the processing

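No paired analysis was possible because the deposited lists hold 1 list per genotype and no file of a single replicate was used, so leaving out a replicate was not run either. Of 68 recomputed differences at single members, 47 stayed in the same class (lower, higher, or within 1000 bases). A further 7 dropped below 1000 bases in size and 5 newly passed it, none with the opposite sign. The remaining 9 turned, meaning that the sign changed and the difference reached 1000 bases before the change, after it, or both. Within 1000 bases, signs also changed at SMARCC2 (106), SMARCD1 (137 and 903) and SS18 (-369). At a −log10 q of at least 5, 3 members were lower and 6 higher, and SMARCA4 (2299 bases), SMARCC2 (3667), SMARCD1 (3047) and SMARCD3 (2842) turned. Other SWI/SNF subunit genes were then 4 lower and 7 higher, and other remodelling ATPase genes 3 lower and 12 higher. At a fold of at least 4, 3 members were lower and 2 higher, and SMARCA2 (1796), SMARCB1 (-795), SMARCC2 (1853) and SMARCD3 (617) turned. At that fold 2 of 2 peak pairs of the members (100%) were narrower in the knockout list, beside 51.3% of all 7184 such pairs. For the gene record alone no member was higher (0), and SMARCB1 turned (-583). Around the starts of 8 members, 3 were lower and 2 higher. In these settings the cause was not tested. Equal peak numbers, an equal merging distance or 10 kb on either side left 5 to 8 members lower and 1 higher. A rule on the ratio in place of the difference gave 6 lower and 1 higher. Equal merging distance changed no member's covered bases, and equal peak numbers changed only those of SMARCA2 and SMARCC1. Such unchanged values count among the 47. So does SS18 at a fold of at least 4, with no covered base in either list. Apart from the −log10 q cutoff, no share over all genes is given for these alternatives. Their counts of members therefore cannot be set against genes at large. The alternatives for peak pairs, and for starts under the same merging distance, were chosen after seeing the data. Depth is unknown, so peaks near the threshold are less certain, and the peak lists do not show which cutoff is equally strict in both.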
